A study of Mus musculus with 25 samples.

Results

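Intervals with a low methylation signal in every group of young mice were examined, to ask whether islets of old mice gained signal there. Methylation was read by methylation-specific amplification and sequencing (MSA-seq), in which SmaI first cuts unmethylated CCCGGG sites, XmaI then opens the methylated sites, and adaptor-mediated PCR amplifies the DNA lying between 2 opened ends. A read count therefore stands for methylation at both ends of an interval, on a relative scale. The members were the autosomal intervals of 500 to 2499 bp with a mean under 3 CPM (the raw count divided by the library total and scaled to 1000000 counts) in each of the 3 groups sampled at postnatal day 21 (P21). There were 8 such intervals among 14858 autosomal intervals of that length and 22749 intervals in all.

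The mice were of the FVB strain, with 5 mice in each of 5 groups. Islets of Langerhans, the hormone-secreting part of the pancreas, came from control mice (C, reared 9 to a litter until P21) and small-litter mice (SL, reared 4 to a litter, a model of early overnutrition), at P21 and at day 180 (P180). Exocrine tissue was represented by whole pancreas from P21 control mice, roughly 98% exocrine per the labels. Hand-picking in 3 rounds purified the islets, and the litters from which the mice came are not given, so p-values measure the spread between these mice, which may be siblings. Library totals ran from 2912624 to 10591677 counts.

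Methylation of cytosine in CpG dinucleotides is copied at cell division and is present at most CpGs of a mammalian genome. The main exceptions are CpG islands, CpG-rich stretches often found at promoters, which are usually kept free of methylation. SmaI and XmaI sites contain a CpG and are frequent in such CpG-rich DNA. In many ageing tissues, DNA that starts with little methylation is known to gain some, while highly methylated DNA has little room to rise.

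A property of the table bears on every result below. In each of the 22749 intervals, at least 1 of the 5 groups had a mean of 20 raw counts or more, the lowest such maximum was exactly 20, and 56 intervals sat exactly at it. The listed intervals thus have a floor of 20 mean counts in their highest group. The step that produced it is not given in the sources used here. At the mean depth of each group, 20 counts correspond to 5.00 CPM in C P21 islets, 3.42 in SL P21 islets, 3.53 in exocrine tissue, 4.60 in C P180 islets and 3.94 in SL P180 islets. An interval under 3 CPM in all P21 groups can thus hardly reach the floor at P21 and is listed where another group does. Of the intervals of this length class, 477 were under 3 CPM in C P21 islets and 610 in exocrine tissue, and 0 of either reached 20 counts in that same group. Among the 306 under 3 CPM in SL P21 islets, 4 did.

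All 8 members had exactly 1 group at or above 20 counts. In 7 of them it was a P180 islet group. For chr6:82574923-82576266 and chr8:125097625-125099077 it was the C P180 group, with 20.8 and 22.4 mean counts. The SL P180 group reached the floor at chr3:7052590-7054804 with 20.8 mean counts, chr4:25652851-25654876 with 22.2, chr10:126514813-126516014 with 23.2, chr11:95510459-95512297 with 20.8 and chr12:88222833-88224000 with 21.2. At chr16:42170321-42172306 it was the SL P21 group, with 20.4. In the length class as a whole, the floor was met only at P180 by 44 of 14858 intervals (0.296%), against 7 of the 8 members.

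**Figure D1:**
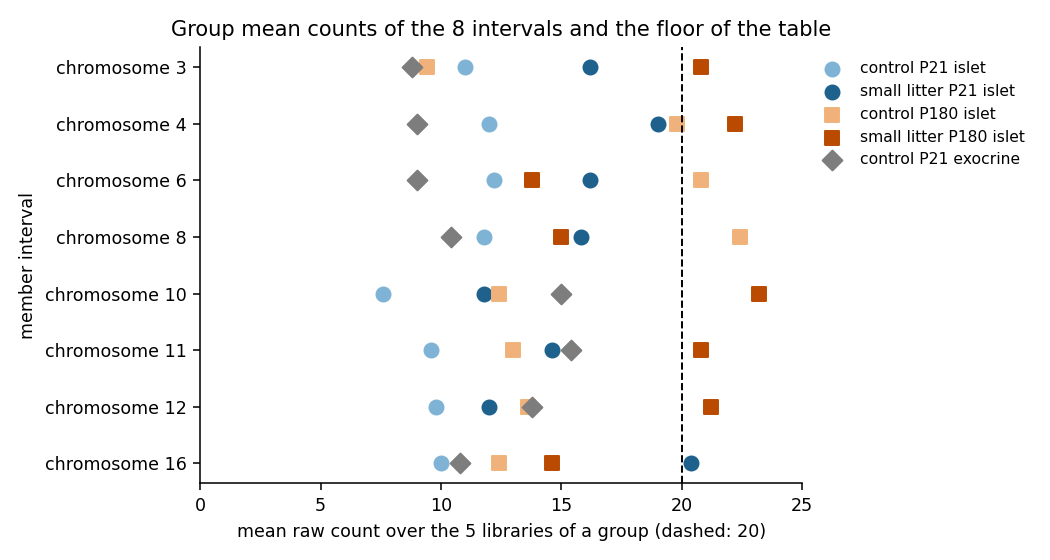
Mean raw count over the 5 libraries of each group (x axis) for the 8 member intervals (y axis, by chromosome), with circles for P21 islets, squares for P180 islets and diamonds for exocrine tissue. The dashed line marks 20 counts. In each row 1 symbol lies past the line: a P180 group in 7 rows and the small-litter P21 group on chromosome 16.

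The label of little methylation was checked against the counts. The members were low but not empty, with a count of 0 in 1 of 200 library values, in exocrine replicate 5 at chr4:25652851-25654876. Their totals over the 25 libraries ran from 331 to 410 counts. Ranked by mean CPM over all libraries they held places 123 to 384 of 14858, so even lower intervals were listed, which failed the rule in at least 1 P21 group. The lowest totals among them were 331 counts at chr3:7052590-7054804, 341 at chr16:42170321-42172306 and 350 at chr10:126514813-126516014. A low count stands for little methylation at 1 or both sites or for poor amplification of that stretch, and these cannot be told apart in the table.

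Members were 1167 to 2214 bp long, with a median of 1645 bp against 1337 bp in the length class, and 6 of 8 were longer than that median. They lay on 8 different chromosomes (3, 4, 6, 8, 10, 11, 12 and 16) and no member adjoined another. Just 2 of 8 shared a site with a listed neighbour, against 43.6% of the length class and 31.2% of the 690 intervals with 3 to 6 CPM in each P21 group. The interval chr6:82573278-82574923 ends at the site where the chromosome 6 member begins. It had 12.0 CPM in C P21 islets, 11.3 in SL P21, 13.9 in C P180, 12.2 in SL P180 and 8.52 in exocrine tissue. The neighbour of the chromosome 16 member, chr16:42172306-42174260, ran from 9.52 to 11.6 CPM over the 5 groups. Both neighbours lay above the adjoining member in all 5 groups. The other 6 members had no listed interval at either end, and the nearest was 4484 bp away (chromosome 11) to 252385 bp away (chromosome 3).

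The values that chose the members are given as a description. Group means at P21 ran from 1.83 to 2.98 CPM in islets and from 1.78 to 2.83 CPM in exocrine tissue. Nearest to the threshold on the inside were chr6:82574923-82576266, whose highest P21 group mean was 2.98 CPM, and chr16:42170321-42172306 with 2.95 CPM. On the outside, chr3:112255059-112256741 had 3.01 CPM and chr14:47799485-47801742 had 3.04 CPM, both in exocrine tissue. At P180 the first of these outside intervals had 3.38 CPM in C and 2.76 in SL islets, and the second 1.14 and 1.29.

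Among the members with the floor met by C P180 islets, chr8:125097625-125099077 read 1.37, 4.25, 1.32, 2.33 and 4.73 CPM in C P21 replicates 1 to 5, and 6.24, 5.12, 4.68, 5.98 and 3.67 in C P180. In SL mice it read 1.59, 2.44, 3.09, 4.19 and 2.36 CPM at P21 against 1.48, 2.23, 3.11, 4.61 and 2.65 at P180. Control mice thus averaged 2.80 CPM ± 1.60 at P21 and 5.14 ± 1.03 at P180, while SL mice averaged 2.73 ± 0.972 and 2.82 ± 1.17 (SD, n = 5 each). In control mice 3 of the P180 libraries lay above every P21 library and 2 did not, and in SL mice the ages covered the same range. Exocrine tissue had 1.96 CPM ± 1.25, with 3.04, 3.15, 1.44, 2.03 and 0.129 in replicates 1 to 5.

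A like pattern held at chr6:82574923-82576266. Control mice read 2.06, 2.83, 3.30, 3.40 and 3.31 CPM at P21 against 8.22, 3.92, 3.04, 5.54 and 3.95 at P180. Small-litter mice read 0.637, 3.17, 3.58, 2.99 and 2.55 CPM at P21 against 2.54, 4.73, 1.55, 3.25 and 2.41 at P180. The rise of the control mean from 2.98 to 4.94 CPM rested most on replicate 1 at P180, and the SL means of 2.59 and 2.90 CPM differed by less than the spread between mice. Exocrine tissue averaged 1.79 CPM ± 1.23 (SD, n = 5).

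Where the SL P180 group met the floor, the larger difference was in SL mice. At chr10:126514813-126516014, which has the lowest P21 islet levels of the 8, SL mice read 2.23, 0.975, 4.20, 0.599 and 1.13 CPM at P21 against 1.06, 5.84, 5.65, 5.81 and 3.85 at P180. Control mice read 1.72, 1.18, 2.64, 1.97 and 2.13 CPM at P21 against 2.27, 4.78, 1.17, 3.10 and 1.98 at P180. The SL mean went from 1.83 CPM ± 1.46 to 4.44 ± 2.07, with P180 replicates 1 and 5 within the P21 range, and the control mean from 1.93 ± 0.537 to 2.66 ± 1.37 (SD, n = 5 each).

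At chr12:88222833-88224000, SL mice read 1.59, 3.41, 2.84, 2.99 and 0.755 CPM at P21 against 1.27, 8.07, 2.26, 6.66 and 3.85 at P180. Control mice read 4.46, 3.78, 2.31, 1.43 and 1.18 CPM at P21 against 1.13, 4.09, 1.41, 3.76 and 4.80 at P180. Replicates 2 and 4 carried the SL P180 mean of 4.42 CPM ± 2.88, and the control ages covered nearly the same range (2.63 ± 1.44 and 3.04 ± 1.66, SD, n = 5 each). At chr11:95510459-95512297, SL mice read 1.59, 3.66, 2.47, 2.69 and 2.27 CPM at P21 against 2.54, 3.62, 3.95, 4.61 and 5.77 at P180. Its control mice read 0.343, 3.54, 2.31, 2.69 and 2.36 CPM at P21 against 4.82, 1.19, 3.75, 3.10 and 3.11 at P180. The ages overlapped in both litter groups.

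The interval chr4:25652851-25654876 had the highest P180 islet mean of the 8, 4.30 CPM ± 1.98 over 10 libraries, with nearly equal means in both litter groups (4.29 in C and 4.31 in SL mice). Control mice read 3.09, 2.60, 0.990, 5.01 and 2.13 CPM at P21 against 3.69, 7.16, 3.04, 4.43 and 3.11 at P180. In SL mice the values were 0.318, 3.17, 5.68, 1.20 and 2.93 CPM at P21 against 4.24, 2.23, 5.93, 1.71 and 7.46 at P180. Its C P180 group missed the floor narrowly, with 19.8 mean counts, and single P21 libraries reached the level of the P180 libraries.

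At chr3:7052590-7054804 the litter groups went opposite ways. Control mice read 1.03, 0.708, 2.97, 4.66 and 3.31 CPM at P21 against 1.42, 2.90, 1.41, 3.99 and 0.282 at P180, a mean of 2.53 and then 2.00. In SL mice the values were 2.23, 2.68, 4.44, 1.20 and 2.17 CPM at P21 against 6.36, 1.67, 5.65, 0.342 and 6.26 at P180, a mean of 2.54 and then 4.05. The SL P180 libraries fell into 3 high and 2 low ones, so this mean describes few of the mice.

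At chr16:42170321-42172306, the member listed through a P21 group, the ages differed by less than the SD between mice. Control islets averaged 2.35 CPM ± 0.900 in young and 2.86 ± 1.18 in old mice, and SL islets 2.95 ± 2.67 and 2.90 ± 1.31 (SD, n = 5 each). SL P21 replicate 3 read 7.65 CPM there, and the other 4 mice of its group 0.955 to 2.10.

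**Figure D2:**
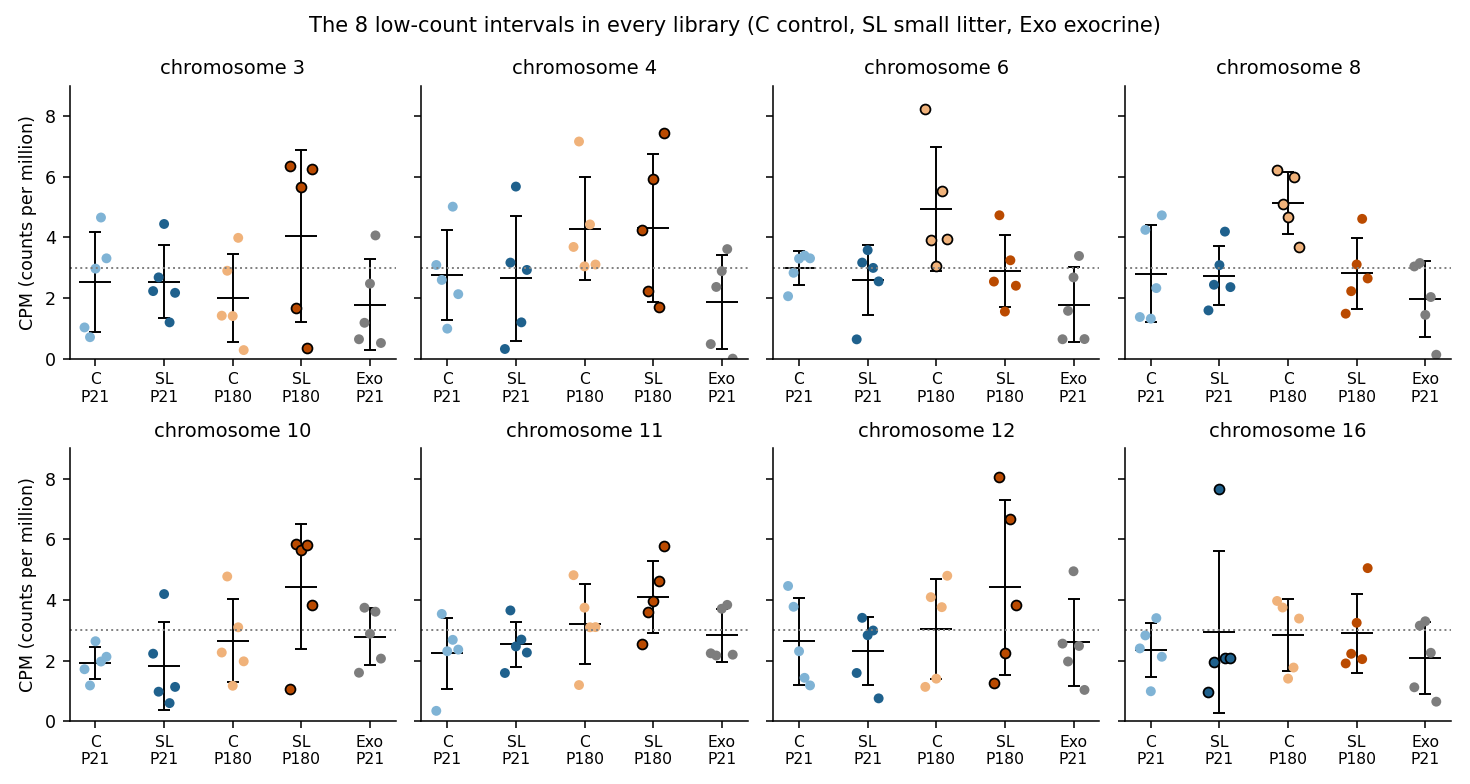
CPM of the 8 members (panels, by chromosome) in each of the 25 libraries (points), with group mean and SD (bars). Black outlines mark the group that reached 20 mean counts, and the dotted line marks 3 CPM. The outlined group is the highest in each panel, and points of different groups overlap in all panels.

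Counting error alone is wide at these depths. Summed over the 5 libraries of a group, members held between 38 counts (C P21 islets at chr10:126514813-126516014, exact Poisson 95% interval 26.9 to 52.2) and 116 counts (SL P180 islets at the same interval, 95.9 to 139). These intervals cover counting error only, and reads of amplified DNA are not independent molecules.

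The age comparison over all islets called none of the 8 members. The test (edgeR quasi-likelihood, 20 islet libraries, Benjamini-Hochberg adjustment over 22654 intervals) gave a lowest adjusted p of 0.341 among them, at chr10:126514813-126516014 with a log2 fold change of 0.91 ± 0.33 (SE). All intervals tested gave 48 calls (0.212%), of which 44 were higher (0.194%) and 4 lower (0.0177%) at P180. At an unadjusted p under 0.05 there were 2 of 8 members, those on chromosomes 10 and 11, against 9.57% of all intervals. DESeq2 and limma voom called 0 members as well, with 135 and 82 calls over all intervals. At such shares 0 calls among 8 intervals say little about the members. The fitted change was above 0 at 8 of 8, with a median of 0.55 on the log2 scale and a range from 0.12 to 0.91, where 49.7% of all intervals were above 0 and their median was -0.00. Since the P21 libraries chose the members for low values, and the table lists most of them through a high P180 value, this direction is not a result about age.

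Within a litter group no member was called for age either (0 of 22654 intervals, 0%, in either litter group by edgeR's quasi-likelihood test). At an unadjusted p under 0.05 there was 1 member in control mice, chr8:125097625-125099077 with 0.87 ± 0.38 on the log2 scale, and 1 in SL mice, chr10:126514813-126516014 with 1.29 ± 0.45 (SE). For all intervals these shares were 4.64% and 5.18%. The fitted change was above 0 at 7 of 8 members in each litter group, against 51.6% of all intervals in control and 46.7% in SL mice. No member had P180 libraries all above the P21 libraries, in control mice (0.646% of all intervals), in SL mice (0.382%) or in both together (0.0176%).

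Group means of CPM were higher at P180 at 7 of 8 members in each litter group, and at 43.4% of all intervals in control and 40.2% in SL mice. Over both litter groups together they were higher at 8 of 8, against 41.3% of all intervals. Averaged over the 8 members, libraries had 2.53 CPM ± 0.445 in C P21, 2.52 ± 1.07 in SL P21, 3.51 ± 0.715 in C P180, 3.74 ± 0.713 in SL P180 islets and 2.21 ± 0.974 in exocrine tissue (SD, n = 5 each). The P180 islet mean exceeded the P21 islet mean by 1.10 CPM. Libraries of the ages overlapped: C P21 ran from 2.06 to 3.11 and C P180 from 2.49 to 4.12, SL P21 from 1.39 to 4.24 and SL P180 from 2.68 to 4.66. With a library left out and the members chosen anew, the difference was 0.113 CPM without exocrine replicate 1 (43 members), 0.343 without exocrine replicate 5 (20 members) and 0.764 without SL P21 replicate 3 (17 members). Without SL P21 replicate 1, 4 members were left, with a difference of 1.12 CPM.

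Exocrine tissue was the lowest of the 5 groups at 5 of the 8 members, a description only, since the rule held it under 3 CPM. Both P180 islet groups lay above it at 7 of 8, the exception being the C P180 group at chr10:126514813-126516014 with 2.66 against 2.78 CPM. It lay below both P21 islet groups at 5 of 8. Any part of exocrine DNA in the islet values was not tested.

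At the 7 members listed through a P180 group, that group was set beside the other P180 group, which did not meet the floor. In the group at the floor, the P180 mean exceeded the P21 mean of the same litter group by 1.51 to 2.62 CPM, with a mean of 1.96. In the other P180 group the difference ran from -0.54 to 1.52 CPM, with a mean of 0.494 and a median of 0.406. There it was above 0 at 6 of 7 and over 1 CPM at 1, on chromosome 4. The P180 level of that other group averaged 2.98 CPM and was under 3 CPM at 4 of 7. The larger mean difference lay in the group through which the interval is listed. The listing itself largely sets this order, since that group was picked by its high P180 count. Both differences were read against P21 values chosen to be low, so no conclusion is drawn from them.

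The comparison of litter groups at P180 uses no library of the rule, but the floor enters it, since 1 of the 2 groups listed the interval at 7 of the 8 members. No member was called (0 of 22654 intervals, 0%, edgeR quasi-likelihood test). DESeq2 and limma voom also called 0, both of the members and of all intervals. By edgeR's quasi-likelihood test, the smallest unadjusted p was 0.0313, at chr8:125097625-125099077, with a log2 difference of SL from C mice of -0.85 (SE 0.37). Next was chr6:82574923-82576266 with -0.80 (SE 0.36) and an unadjusted p of 0.0346 (edgeR). For both the adjusted p was 1.00 (edgeR), and 0.887% of all intervals had an unadjusted p under 0.05. Both were listed through the C P180 group. The 95% intervals of these differences ran from -1.58 to -0.13 and from -1.50 to -0.11. None of the 8 had litter groups apart at P180 (0.132% of all intervals with SL above and 0.119% with C above).

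Regression to the mean was looked at by letting the other age choose. Taking intervals under 3 CPM in both P180 islet groups and in exocrine tissue gave 45 intervals, of which 44 met the floor in SL P21 islets, 1 in C P21 islets and 0 at P180. These showed the opposite course. Control mice averaged 3.34 CPM ± 0.344 at P21 and 2.54 ± 0.759 at P180, and SL mice 3.91 ± 0.911 and 2.43 ± 0.307 (SD, n = 5 each). The difference of -1.14 CPM had nearly the size of the 1.10 CPM of the members, with its sign turned. Since all 45 were listed through a P21 group, the floor partly fixes this direction. The size of regression to the mean alone cannot be read from it. The islet mean was higher at P180 at 2 of these 45, and at 7 in control mice alone. The chromosome 16 member is in both choices, being under 3 CPM at both ages, and its islet mean was 0.228 CPM higher at P180.

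In a further choice, each litter group was read at intervals that the other had chosen. All 8 members are among both the 64 and the 18 intervals that follow. Using C P21 islets and exocrine tissue alone gave 64 intervals. The SL libraries had no part in the CPM rule and averaged 3.72 CPM ± 0.976 at P21 and 3.08 ± 0.451 at P180. Of the 64 intervals 55 had met the floor in the SL P21 group itself, so SL libraries entered through the listing. Using SL P21 islets and exocrine tissue alone gave 18 intervals, with 3.27 CPM ± 0.226 in C P21 and 3.92 ± 0.491 in C P180 islets. Of these, 17 had met the floor at P180, 8 in the C P180 group that is read and 9 in the SL P180 group. The litter groups thus differed by age in opposite directions. In each, the higher level was at the age at which most of the intervals had met the floor, and the cause was not tested. The listing partly fixes these directions, so neither they nor the tests of these lists are a result about age. No interval of either choice was called for age in the litter group that did not choose it (edgeR quasi-likelihood test, adjusted over all 22654, lowest adjusted p 0.835 for SL and 0.999 for control mice). At an unadjusted p under 0.05 there were 9 of 64 in SL mice, against 5.18% of all intervals, and 1 of 18 in control mice, against 4.64%.

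Among the 64, the smallest p-values in SL mice belonged to decreases. The interval chr5:102094356-102096814 went from 5.20 CPM ± 1.82 to 2.22 ± 0.490, a log2 fold change of -1.11 ± 0.31 (SE), and had 28.4 mean counts in SL P21 islets. At chr16:18582755-18584737 SL mice went from 3.81 CPM ± 1.56 to 1.75 ± 0.678, and 20.6 mean counts in SL P21 islets had met the floor. In control mice the P21 and P180 means were 2.52 and 2.09 CPM at the first of these and 2.08 and 2.47 at the second. Among the 18, the smallest p-values in control mice were those of the chromosome 8 and 6 members.

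**Figure D3:**
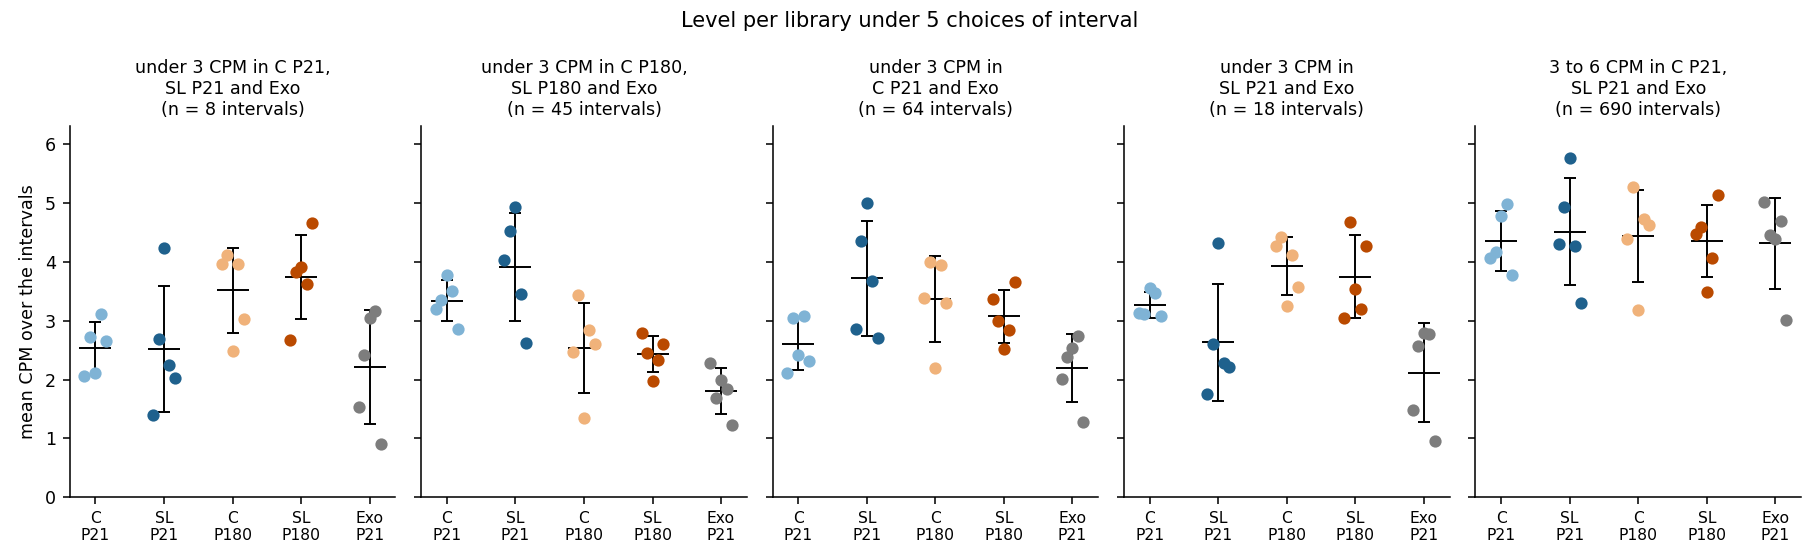
Mean CPM over the intervals of 5 choices (panels) in each library (points), with group mean and SD (bars). Low choice at P21 (8 intervals) comes with higher P180 islet levels, low choice at P180 (45 intervals) with higher P21 islet levels, and the 690 intervals of 3 to 6 CPM with levels near 4.4 CPM in every group. Of the 8 intervals 7 met the floor at P180 only, and all 45 met it in a P21 group.

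A choice that removes both the low values and the floor from the comparison was made after seeing the data. Intervals were taken when a choosing P21 group was itself at 20 counts or more, so that no P180 value was needed to list them, and were read in the litter group not used. Under 3 CPM this was not possible for more than 4 intervals, so thresholds of 4 and 6 CPM were used. With 354 intervals under 4 CPM chosen by SL P21 islets and exocrine tissue, control islets averaged 3.22 CPM ± 0.411 in young and 3.29 ± 0.607 in old mice. With 1567 intervals under 6 CPM they had 3.96 ± 0.506 and 3.97 ± 0.755 (SD, n = 5 each). The P180 mean was higher at 52.5% and 49.0% of these intervals. With 154 intervals under 4 CPM chosen by C P21 islets and exocrine tissue, SL islets averaged 2.94 CPM ± 0.711 in young and 2.66 ± 0.428 in old mice, and with 1136 under 6 CPM they had 4.26 ± 0.905 and 3.94 ± 0.540. The mean was higher at P180 at 34.4% and 36.2%. All 154 met the floor in exocrine tissue and 0 in C P21 islets, and 980 of the 1136 met it in exocrine tissue. Exocrine tissue averaged 3.73 CPM at the 154 intervals, against 2.21 CPM at the members. It averaged 2.99 CPM at the 354 intervals and 3.77 CPM at the 1567, of which 143 and 942 met the floor in exocrine tissue. In this respect all 4 sets differ from the members. Differences between the ages were thus 0.0667 and 0.00398 CPM in control and -0.28 and -0.32 CPM in SL mice, all below the SD between mice. The P21 levels read here lay above those of the members, 2.53 CPM in control and 2.52 in SL islets. These differences therefore describe higher intervals than the members. Within a litter group no interval of these 4 sets was called for age, as 0 of all 22654 were (edgeR quasi-likelihood test). Tested were 332 of the 354, 1509 of the 1567, 132 of the 154 and 1078 of the 1136 intervals.

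Over all islets, 1 interval of both sets under 6 CPM was called higher at P180 and 0 lower, against 0.194% and 0.0177% of all intervals. It is chr10:42892495-42893177, named after its values were seen, and it was in neither set under 4 CPM, with 4.74 CPM ± 2.38 and 28.4 mean counts in exocrine tissue. Control islets there averaged 1.20 CPM ± 0.613 in young and 3.96 ± 1.79 in old mice, and SL islets 2.00 ± 1.05 and 4.57 ± 2.09 (SD, n = 5 each). Its log2 fold change with age was 1.49 ± 0.31 (SE, adjusted p = 0.0477, edgeR), from libraries of which 1 P21 islet group had taken part in each choice. The call was lost in 23 of 30 alternative fits, with adjusted p from 0.00422 (DESeq2) to 0.131 (edgeR without the 3 libraries with the most zeros) and a log2 fold change from 1.38 to 1.66.

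**Figure D4:**
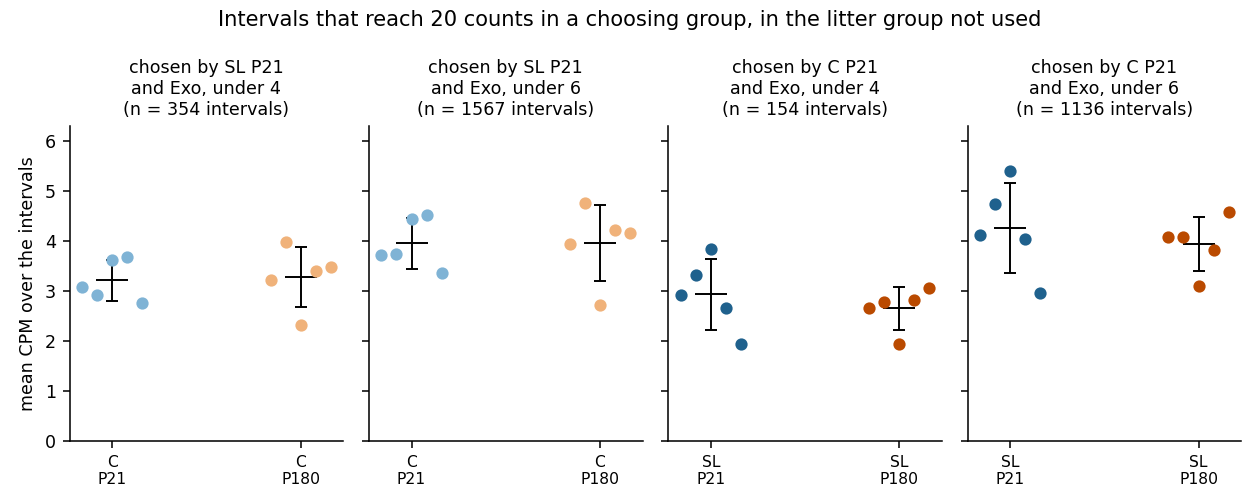
Mean CPM per library (points) with group mean and SD (bars) at intervals for which a choosing P21 group itself had 20 mean counts, read in the litter group that did not choose them. The P21 and P180 points overlap in all 4 panels, in control mice (left pair) and in small-litter mice (right pair).

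The 690 intervals with 3 to 6 CPM in each P21 group served as the nearest comparison. Of these, 688 met the floor in a P21 group. Control islets averaged 4.35 CPM ± 0.510 in young and 4.44 ± 0.777 in old mice, and SL islets 4.51 ± 0.909 and 4.35 ± 0.614 (SD, n = 5 each). No interval of this band was called for age (edgeR quasi-likelihood test), against 0.212% of all intervals, and 45 of 690 had an unadjusted p under 0.05, against 9.57%. The ratio of the member mean to the mean of this band was taken within each library, to allow for how each represents low intervals. It was 0.586 ± 0.109 in C P21, 0.549 ± 0.151 in SL P21, 0.792 ± 0.0911 in C P180, 0.871 ± 0.187 in SL P180 and 0.503 ± 0.191 in exocrine libraries. The ages overlapped in this ratio too, with up to 0.705 in C P21 and down to 0.656 in C P180 islets, and up to 0.736 in SL P21 and down to 0.599 in SL P180 islets. Both sets were chosen by P21 levels, and 7 of the 8 members were listed through P180. The higher ratios at P180 are therefore not a result about age, and whether the ratio removes a library effect was not tested.

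The age at which the floor was met partly fixes the direction of a difference between ages, so the following is a description of the table. The 44 intervals that met the floor only at P180, the 7 members included, had a higher islet mean at P180 at 40. The 981 that met it only in a P21 group had a higher mean at P180 at 268, or 27.3%. Over all 14858 the share was 48.7%.

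**Figure D5:**
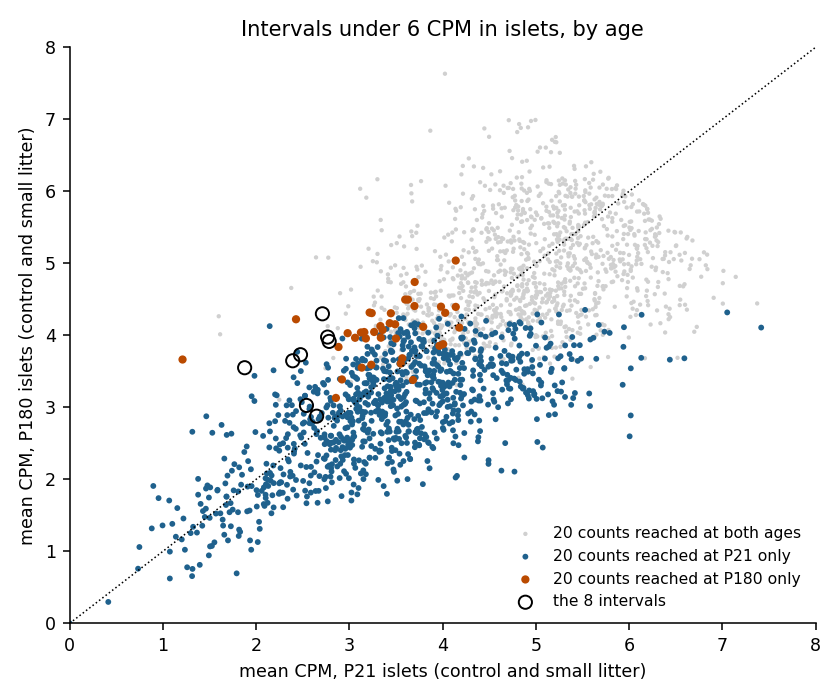
Mean CPM of P21 islets (x axis) and P180 islets (y axis) for intervals of 500 to 2499 bp with a mean over the 4 islet groups under 6 CPM, 1 point each, coloured by the age whose groups reached 20 mean counts (P21 includes exocrine tissue). The dotted line marks equal levels. Open circles are the 8 members, which all lie above the line; 7 of them reached 20 counts at P180 only and the one on chromosome 16 at P21 only.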

How the data were processed

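Genomic DNA of 25 mice was cut with SmaI and then XmaI, amplified through ligated adaptors, sheared and sequenced, per the labels' protocols. FastQC 0.10.1, cutadapt, Bowtie 0.12.9 and build mm9 are named in the submitters' processing notes. The deposited table holds raw counts, not normalized, for each interval from 1 site to the next. Read assignment and list filter: not given in the sources used here. Positions are those of the table.

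Members and lists were chosen with earlier results of these data known. CPM used column totals. Counts were tested in R 4.3.3 with edgeR 4.0.16 (filterByExpr, TMM, robust quasi-likelihood, 1 mean per group, 20 islet libraries, 22654 intervals, threshold 0.05), and all 8 members passed the filter. The standard error is the log2 fold change divided by the root of the test statistic, and 95% intervals are 1.96 standard errors wide on each side. The script was tested on simulated counts with changed low intervals. Alternatives included DESeq2 1.42.0 and limma 3.58.1 voom, and figures used matplotlib 3.10.9. Named intervals are the members (8, which the rule on highest P180 mean, lowest total and threshold exhausted), 2 intervals outside the threshold and those with the smallest unadjusted p in a litter group that had not chosen them. The replicate numbers were not treated as pairing the mice. No genome or gene annotation of mm9 was used here, so no sequence is printed and no gene is assigned.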

Additional observations from a re-analysis of the deposited data

Results flagged for a closer look

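The value of 7.65 CPM in SL P21 replicate 3 at chr16:42170321-42172306 lay far from the other 4 mice of its group, which ran from 0.955 to 2.10 CPM; its gap to the nearest was 0.83 of the whole range. It was 1 of 45 groups of 5 libraries examined (8 members and their mean in 5 groups), and chance flags about 1 in 20. With 62 counts it brought this group to 20.4 mean counts, so the interval is in the table through this library. Without it, the log2 fold change with age there was 0.46 (adjusted p = 0.642, edgeR).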

How the results depend on the processing

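The 4 counts of calls (members for age, members for litter size at P180, and both cross choices for age) were 0 in all 30 alternative fits each. The lowest adjusted p among members for age ran from 0.163 to 0.577 over them. Over all intervals, the fits called 5 to 135 for age and 0 for litter size at P180. They called 0 for age in SL mice and 0 to 16 for age in control mice. With so few calls, the zeros in these short lists say little about the lists. The replicate block also gave 0 calls in each. Same-numbered islet libraries correlated from -0.36 to 0.66, over 0.1 in 10 of 30 pairs. Their median was 0.021, against -0.041 for other numbers, and the numbers were not treated as pairs. Fitted changes with age kept their sign in all 30 fits at 6 members. The exceptions were chr3:7052590-7054804 with limma voom (-0.20 on the log2 scale) and chr16:42170321-42172306 without the 3 libraries with the most zeros (-0.045) and with single libraries left out (-0.016, without SL P180 replicate 5, to 0.46). The list itself moved most: 0 intervals were under 2 CPM, 304 under 4 CPM, and 4 to 43 with a library left out. The difference of 1.10 CPM became 0.0630 under 4 CPM and ran from 0.113 to 1.24 with a library left out. It was -1.14 with the choice at P180 and -0.64 in SL mice at intervals chosen by control mice. Both of these lists met the floor mostly in P21 groups, which partly fixes the sign. The floor bears less on the next values. At intervals that met the floor in a choosing group (added after seeing the data) the difference was 0.0667 and 0.00398 CPM in control and -0.28 and -0.32 in SL mice, under 4 and 6 CPM. No level could be computed under 2 CPM. Depth limits all of this: 3 CPM is 8.74 to 31.8 counts per library.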

Other observations

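An interval just outside the rule, chr14:115175847-115178263 (2416 bp), was picked after its values were seen, as the one with the lowest P21 islet level among those listed only through P180. Exocrine tissue had 3.41 CPM ± 2.11 there, which kept it off the list of members. Control islets read 0, 1.65, 0, 0.358 and 0.946 CPM in young mice (2 libraries at 0 counts) and 5.95, 6.31, 3.98, 5.76 and 5.65 in old ones. All P180 libraries lay above all P21 libraries, as at 0.646% of all intervals in control mice. In SL islets the values were 0, 1.95, 2.22, 2.99 and 1.98 CPM in young and 3.18, 0.278, 2.82, 1.02 and 1.68 in old mice, which overlap. In control mice its log2 fold change of 3.09 ± 0.66 (SE) was the highest of all 22654 intervals tested and missed the threshold (adjusted p = 0.259, edgeR). The adjusted p was 0.00851 with DESeq2 and 0.00541 with limma voom, which called 16 and 2 of all intervals in this contrast. It ran from 0.164 to 0.854 in the other 28 alternative fits. The difference of the age changes between litter groups was -3.08 ± 0.89 on the log2 scale (adjusted p = 1.00, edgeR; unadjusted p = 0.00230). The C P180 group alone brought it to the floor of 20 counts, with a mean of 24.2. Its low P21 level picked it and its high C P180 count listed it. Its differences with age and their tests are therefore not a result about age.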
